A study of Mus musculus with 31 samples.

Results

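The comparison set 3 RNA-seq libraries of naive wild-type (WT) dendritic cells, grown from bone marrow and numbered 1, 2 and 4 in the labels, against 10 libraries of whole WT spleen. These 13 of the 31 libraries of the series were chosen by their labels. Both groups were C57BL/6 with a wildtype genotype. The dendritic cells came from marrow of male mice aged 8 to 16 weeks, which was kept for 10 days in medium holding supernatant of an X63 line that secretes GM-CSF; the cells were harvested on day 10, seeded again without serum. The groups treated with LPS received it on day 11 for 8 h, and the naive group is labelled without it. The spleens came from mice aged 12 weeks whose sex the labels do not give. RNA was total RNA in both groups. The series was made to study expression of the receptor gene Gpr34 in WT and knockout mice, and its knockout and LPS-treated libraries were used here only in an alternative fit over all 31 libraries. The labels do not say whether each culture or spleen came from its own mouse, so the p-values cover library-to-library spread, which may be partly technical.

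Dendritic cells take up antigen, process it and show it to T cells on MHC class II. In the mouse, conventional dendritic cells fall into a type 1 subset, which depends on Irf8 and Batf3, and a type 2 subset, which depends more on Irf4, and both change their genes when they mature and move to lymph nodes. GM-CSF drives marrow progenitors into cultures known to hold both dendritic cells and macrophages, whereas the spleen is mostly lymphocytes with red pulp macrophages, developing and mature red cells, vessels and stroma. A bulk library cannot tell fewer cells of a type from less RNA per cell.

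Total counts were 53585638 to 62282841 in dendritic cell libraries and 56834377 to 119384704 in spleen libraries, and 19220 to 19852 genes had a count in the cultures, against 22325 to 24142 in spleens. Levels are CPM, counts scaled to a common library size adjusted by TMM, and a fold change is dendritic cells over spleen. A gene not listed for a library was taken as 0 there. A gene was called when its adjusted p was under 0.05 (edgeR's quasi-likelihood test with Benjamini-Hochberg adjustment over 21660 tested genes). Of the tested genes 71.0% were called in one direction or the other: 6197 (28.6%) were called higher in dendritic cells and 9175 (42.4%) lower, 1442 (6.66%) were called and at least 4-fold higher, and 5420 (25.0%) were called and at least 4-fold lower. The groups did not overlap for 25.2% of tested genes that were higher in dendritic cells and for 34.1% that were lower, and the median log2 fold change over all tested genes was -0.33. Each list below is read against these shares.

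**Figure D1:**
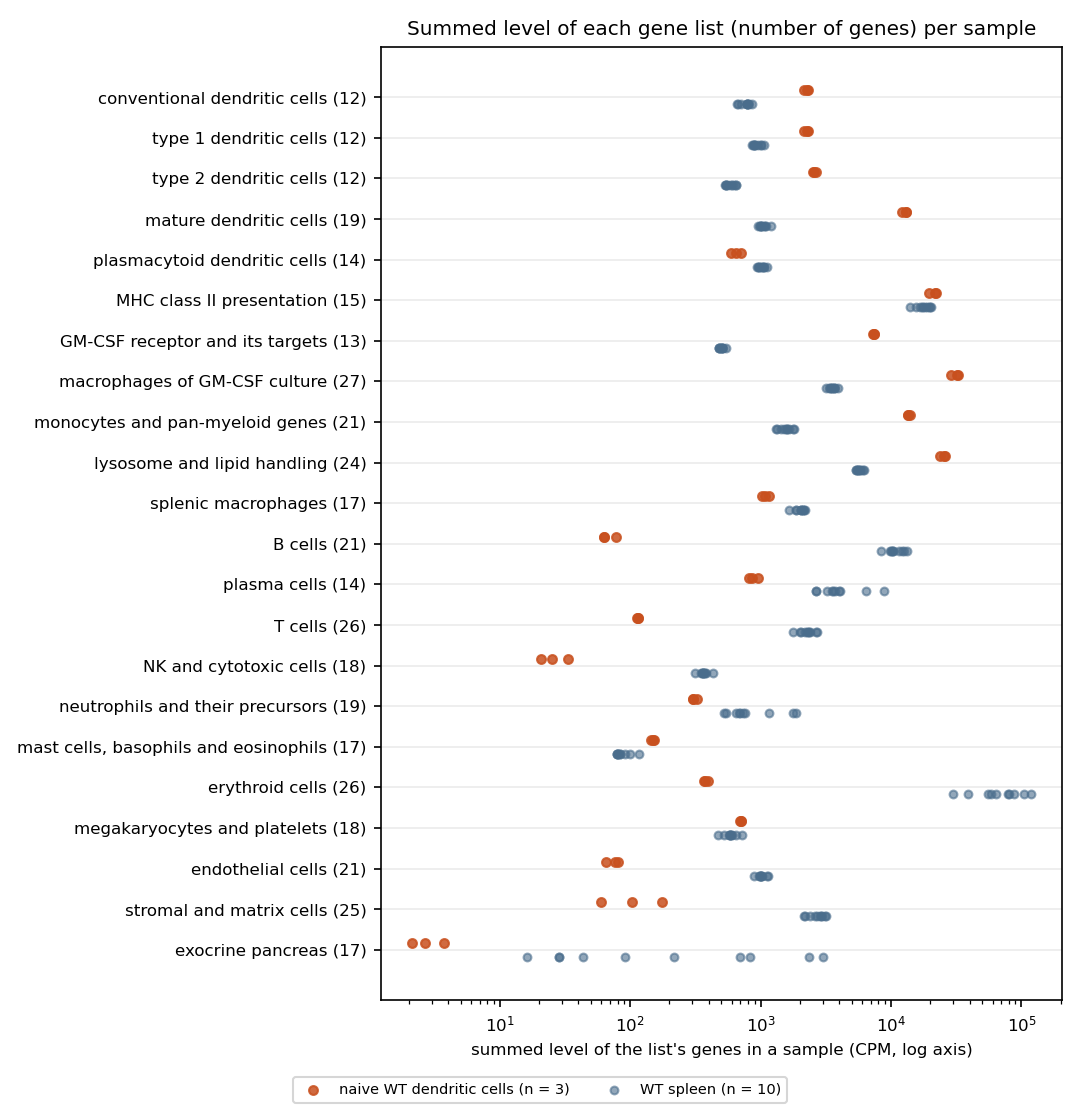
Summed level of each gene list in every library, in CPM on a log axis, with the 3 dendritic cell cultures (orange) drawn above the 10 spleens (blue) and the number of list genes in brackets. The mature dendritic cell genes summed to 12130 to 13080 CPM in the cultures and at most 1208 CPM in spleens, and B cell genes summed to at most 78.0 CPM in the cultures and at least 8359 CPM in spleens.

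Genes used to define conventional dendritic cells as a class were divided. Of 12 such genes, 6 were called higher and 5 lower, 3 of them at least 4-fold higher and 2 at least 4-fold lower, with a median log2 fold change of 0.27. Their summed level was 2157 to 2324 CPM in cultures, against 657 to 858 CPM in spleens. Itgax and Ccr7 made up that gap: the other 10 genes summed to 567 to 610.1 CPM in cultures, inside the range of 520 to 693 CPM in spleens. Zbtb46 (chr2:181387762-181459426, minus strand), a transcription factor of the conventional lineage, had 32.4, 37.7 and 32.3 CPM in dendritic cells, against 7.91 to 12.3 CPM (median 10.3) in spleens. All 3 cultures lay above all 10 spleens, 3.37-fold higher (log2 1.75, SE 0.11, adjusted p = 5.81e-09). Itgax, which encodes the CD11c integrin chain, had 663, 671 and 764 CPM in dendritic cells and 95.8 to 126 CPM (median 108) in spleens. Its 6.41-fold difference also left no overlap (adjusted p = 1.05e-12). Ccr7, the receptor that guides migrating dendritic cells to lymph nodes, had 926, 1043 and 937 CPM in dendritic cells and 35.9 to 42.7 CPM in spleens, 24.7-fold higher (log2 4.62, SE 0.06, adjusted p = 2.68e-15). Jaml, an adhesion molecule, was 18.8-fold higher, at 147 to 152 CPM in dendritic cells and 6.01 to 9.59 CPM in spleens.

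Other class genes went the opposite way. Flt3, the receptor for the growth factor that drives dendritic cell development in vivo, had 21.7, 17.2 and 16.5 CPM in dendritic cells, against 37.0 to 52.0 CPM (median 43.9) in spleens. Every culture was below every spleen (log2 -1.27, SE 0.12, adjusted p = 4.42e-07). Btla, an inhibitory receptor that B and T cells carry too, averaged 7.72 ± 0.714 CPM in dendritic cells (SD, n = 3) and 241 ± 31.4 CPM in spleens (SD, n = 10), 31.2-fold lower.

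The type 1 subset was represented unevenly. Of 12 genes, 4 were higher (Irf8, Ly75, Naaa and Batf3), 7 were lower and 1 was not called, with a median log2 fold change of -1.10. Irf8, which encodes the factor that type 1 cells depend on, had 1282, 1396 and 1414 CPM in dendritic cells and 163 to 278 CPM (median 246) in spleens, 5.94-fold higher (adjusted p = 3.93e-10). No spleen reached a culture. Ly75, the uptake receptor DEC-205, had 352, 307 and 305 CPM in dendritic cells and 23.0 to 50.4 CPM in spleens, 10.3-fold higher. Batf3, the partner factor, had 21.5, 21.2 and 22.3 CPM in dendritic cells and 2.37 to 8.51 CPM in spleens (log2 1.98, SE 0.27, adjusted p = 1.59e-05). Other genes of the subset were lower. Xcr1, its chemokine receptor, had 0.236, 0.346 and 0.240 CPM in dendritic cells, against 2.23 to 4.86 CPM (median 3.44) in spleens, 12.8-fold lower (adjusted p = 2.49e-08). Clec9a, its receptor for dead cell debris, had 8.23, 5.00 and 10.9 CPM in dendritic cells, against 32.4 to 49.4 CPM in spleens, 5.11-fold lower. Cd8a, which T cells share with the splenic subset, had 0.865 to 1.18 CPM in dendritic cells and 61.8 to 89.3 CPM in spleens.

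Type 2 genes were more often higher. Of 12, 9 were higher and 3 lower, 6 at least 4-fold higher and 3 at least 4-fold lower, and the median log2 fold change was 1.91. Mgl2, a lectin for galactose-type sugars, had 372, 453 and 451 CPM in dendritic cells and 1.65 to 9.86 CPM (median 6.04) in spleens. The cultures stood 74.2-fold higher (log2 6.21, SE 0.37, adjusted p = 2.09e-09). Mgl2 shared 33.2% of its coding windows of 30 bases with another gene, and Clec10a, its close relative, 41.3%. Clec10a itself was 13.8-fold higher, with 198 to 252 CPM in dendritic cells and 12.2 to 21.8 CPM in spleens. Irf4, the factor linked to the type 2 subset, had 192, 218 and 248 CPM in dendritic cells and 42.4 to 67.1 CPM in spleens, 4.17-fold higher (adjusted p = 4.24e-09). Sirpa, which encodes a receptor for the CD47 signal, was 3.39-fold higher and Il1r2, a decoy receptor for interleukin 1, 18.8-fold higher. Within the same list Cd209a, a lectin known from monocyte-derived dendritic cells, had 0.590, 0.865 and 0.553 CPM in dendritic cells and 7.2 to 13.1 CPM in spleens, 14.6-fold lower (adjusted p = 3.58e-09). Cd209d, a related lectin gene, had no count in any culture and was at least 212.5-fold lower than in spleens, where it had 2.46 to 5.92 CPM; such bounds put the cultures together at 3 counts.

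**Figure D2:**
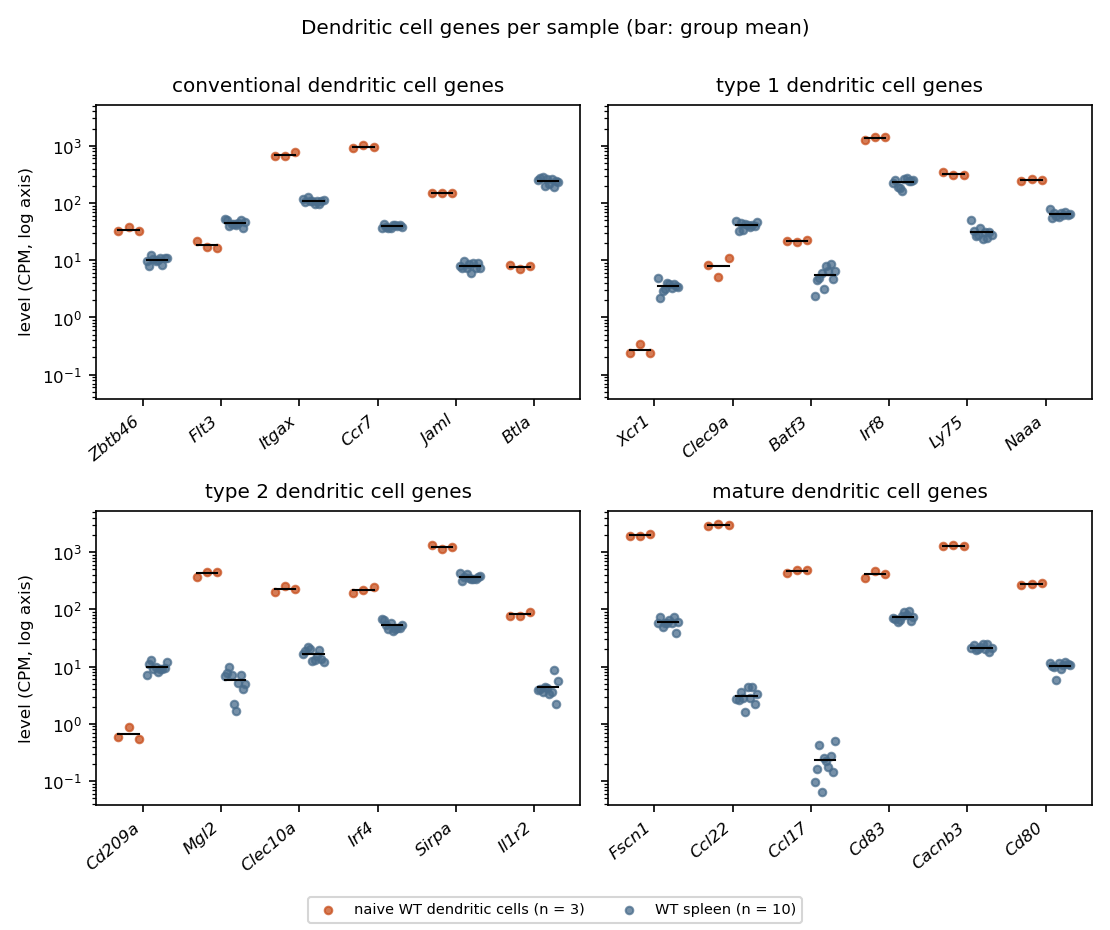
Level of named dendritic cell genes in every library, in CPM on a log axis, with dendritic cell cultures (orange, n = 3) left of spleens (blue, n = 10) for each gene and a bar at each group mean. Cultures lay above spleens for Zbtb46, Itgax, Ccr7, Irf8, Batf3 and all 6 mature genes shown, and below them for Flt3, Btla, Xcr1, Clec9a and Cd209a.

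Genes of mature dendritic cells were higher throughout in these cultures without LPS. All 19 genes of the list were called higher, 15 of them at least 4-fold, with a median log2 fold change of 4.43, and 18 of the 19 had no overlap between the groups. The list summed to 12130 to 13080 CPM in dendritic cells, against 951 to 1208 CPM (median 1018) in spleens. Ccl22 (chr8:94745590-94751699, plus strand), a chemokine that draws T cells with the receptor CCR4, had 2810, 3058 and 2962 CPM in dendritic cells and 1.64 to 4.35 CPM (median 2.86) in spleens. That is 965-fold higher (log2 9.91, SE 0.23, adjusted p = 2.36e-13). Ccl17, its neighbour (chr8:94810453-94812036, plus strand), which acts on the same receptor, had 437, 491 and 483 CPM in dendritic cells and 0.0642 to 0.498 CPM in spleens, 1950-fold higher (log2 10.93, SE 0.33, adjusted p = 2.21e-12). The spleen level of Ccl17 rests on 222 counts over 10 libraries.

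Fscn1, an actin bundler of dendrites, had 1933, 1884 and 2113 CPM in dendritic cells and 39.1 to 74.4 CPM in spleens, 33.2-fold higher (adjusted p = 7.18e-13). Cacnb3, a calcium channel subunit used as a marker of migratory cells, had 1282, 1340 and 1294 CPM in dendritic cells and 17.8 to 24.7 CPM in spleens, 60.9-fold higher (adjusted p = 5.86e-15). No culture overlapped a spleen for either gene. Among ligands for T cell receptors, the costimulators Cd80 and Cd86 were 26.7-fold and 7.84-fold higher, and the inhibitory ligands Pdcd1lg2 and Cd274 were 32.8-fold and 11.6-fold higher. Cd274 shared 51.4% of its coding windows with another gene. Cd86 had 469.7, 448 and 454 CPM in dendritic cells and 51.3 to 65.7 CPM in spleens. Cd83, a maturation marker, had 356, 461 and 423 CPM in dendritic cells and 60.1 to 94.0 CPM in spleens, 5.60-fold higher.

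MHC class II genes were mostly lower in the cultures, 1 of them at least 4-fold. Of 15 presentation genes 4 were higher, 10 lower and 1 not called, the median log2 fold change was -0.41, and 7 overlapped between the groups. Their summed level was 19460 to 22070 CPM in dendritic cells and 14050 to 20230 CPM (median 17840) in spleens, so the ranges overlapped. Without Cd74 and Ctss the other 13 genes summed to 5105 to 6323 CPM in dendritic cells, below the 7224 to 9324 CPM of every spleen. Both genes left out were called higher, so a lower sum of the rest follows in part from that choice. The count of lower genes was 5 without dendritic cell replicate 1. H2-Aa, the alpha chain of I-A, had 1576, 1964 and 1778 CPM in dendritic cells and 1926 to 2444 CPM (median 2185) in spleens. One culture fell inside the spleen range (log2 -0.30, SE 0.09, adjusted p = 0.00791), and the call was lost without dendritic cell replicate 1 (adjusted p = 0.0686). H2-Ab1, the beta chain, had 1208, 1498 and 1526 CPM in dendritic cells and 1833 to 3167 CPM in spleens, without overlap (log2 -0.77, SE 0.15, adjusted p = 0.000366). H2-Eb1, the beta chain of I-E, had 1195, 1602 and 1409 CPM in dendritic cells and 1544 to 2033 CPM in spleens (log2 -0.36, adjusted p = 0.00531), a call likewise lost without replicate 1 (adjusted p = 0.0517). Cd74, the invariant chain that guides class II molecules, had 10540, 12240 and 11960 CPM in dendritic cells and 6380 to 10830 CPM in spleens. One culture overlapped the spleens (log2 0.37, SE 0.14, adjusted p = 0.0305). The call for Cd74 was lost without dendritic cell replicate 2 or 4 and without spleen replicate 1, 5, 7, 9 or 10, with adjusted p of 0.0547 to 0.115. It was also lost with RLE factors (adjusted p = 0.0539), without composition factors (log2 0.10, adjusted p = 0.521), with DESeq2 (adjusted p = 0.055) and over all 31 libraries (adjusted p = 0.157).

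Outside the class II chains, Ctss, cathepsin S, which trims the invariant chain, had 3813, 3508 and 3866 CPM in dendritic cells and 425 to 488 CPM in spleens. It was 8.05-fold higher with no overlap (log2 3.01, SE 0.05, adjusted p = 1.83e-14). H2-Ob, a chain of the DO molecule of B cells that restrains peptide exchange, had 10.02, 12.8 and 15.5 CPM in dendritic cells and 410.3 to 477 CPM in spleens, 34.1-fold lower (adjusted p = 1.09e-12). H2-Oa, the other DO chain, was 2.66-fold lower. H2-DMb1 and H2-DMb2, the beta chains of the DM molecule that loads peptides, were 2.09-fold and 2.83-fold lower, and each shared 61.4% of its windows with another gene. H2-DMa, the alpha chain of DM, went the other way, 1.60-fold higher without overlap (adjusted p = 0.000178), and shared 0% of its windows.

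The receptor for GM-CSF and the genes downstream of it were higher almost throughout. Of 13 genes 12 were called higher, 8 at least 4-fold, with a median log2 fold change of 2.70, and none was called lower. The sum was 7238 to 7422 CPM in dendritic cells and 480 to 542 CPM in spleens. Csf2rb, the signalling chain shared with the interleukin 3 and interleukin 5 receptors, had 3056, 3111 and 3208 CPM in dendritic cells and 52.4 to 83.2 CPM (median 66.1) in spleens. It was 46.0-fold higher (log2 5.52, SE 0.11, adjusted p = 5.89e-14). Csf2rb2, the second beta chain of the mouse, lies beside it on chromosome 15 and was 48.3-fold higher, with 1093, 1097 and 1134 CPM in dendritic cells and 17.7 to 31.2 CPM in spleens. The pair shared 41.4% and 41.3% of their coding windows with another gene, so counts between them are uncertain where reads could fit both. Csf2ra, the chain that binds GM-CSF, had 99.96, 83.6 and 106 CPM in dendritic cells and 3.74 to 20.1 CPM in spleens, 7.62-fold higher (adjusted p = 2.67e-05). Its spleen levels were split: replicates 1 to 5 had 3.74 to 9.30 CPM and replicates 6 to 10 had 18.4 to 20.1 CPM. The same sets of spleens did not overlap in other genes either, such as Apoe (426.5 to 566.2 CPM and 660 to 888.2 CPM). Cst3 (232.2 to 339.7 CPM and 433.6 to 610.5 CPM) and Relb (135.4 to 150 CPM and 170 to 214.6 CPM) split likewise. In Csf2rb and Csf2rb2 the sets overlapped. The fold change of Csf2ra averages over both sets, and the cause of the split was not tested.

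Further down the pathway, Jak2, the kinase bound to the receptor, had 1415, 1463 and 1319 CPM in dendritic cells and 82.5 to 130.2 CPM in spleens, 12.9-fold higher (adjusted p = 4.54e-13). Stat5a, the factor it activates, was 4.23-fold higher, with 250.3, 290.1 and 291 CPM in dendritic cells and 57.7 to 79.4 CPM in spleens. Cish, a feedback inhibitor that STAT5 induces, had 401, 406 and 441 CPM in dendritic cells and 7.54 to 17.0 CPM in spleens, 32.7-fold higher (adjusted p = 1.45e-11). In all 3 genes each culture exceeded each spleen. Pim1, a kinase induced by cytokines, was 6.47-fold higher, Bhlhe40, a transcription factor of cells exposed to GM-CSF, 29.2-fold higher, and Socs3, a feedback inhibitor of cytokine receptors, 2.16-fold higher.

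The letters TTCNNNGAA, the palindrome of STAT factors, were looked for on both strands in the 250 bases before each listed RefSeq start (GRCm38.p6). They were found for 8.13% of 27025 genes with a listed promoter, and for 2 of 11 genes of this list that had one. The 2 are shown, 5′ to 3′ on the strand of the gene, with the matching letters in capitals, because they lie before a beta chain gene and a feedback gene of the list. The stretch of Csf2rb2 is chr15:78305722-78305756 (minus strand) and that of Socs3 is chr11:117969492-117969540 (minus strand).
Csf2rb2: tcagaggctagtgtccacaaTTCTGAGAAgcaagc
Socs3: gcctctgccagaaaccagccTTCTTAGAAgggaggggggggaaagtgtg
A match describes the letters only and is not evidence that a factor was bound there.

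Macrophage genes known from GM-CSF cultures were mostly higher too, in a list that also counts 5 genes with over 50% of windows shared. Of 27 genes 21 were called higher, 16 at least 4-fold, 3 lower and 3 not called, with a median log2 fold change of 2.49. Their sum was 28790 to 32730 CPM in dendritic cells and 3158 to 3890 CPM in spleens. Lgals3, galectin 3, had 6316, 6184 and 6306 CPM in dendritic cells and 109.6 to 202 CPM in spleens, 39.8-fold higher (adjusted p = 1.70e-13). Gpnmb, a glycoprotein of macrophages with many lysosomes, had 1580, 1297 and 1692 CPM in dendritic cells and 2.07 to 8.05 CPM (median 3.30) in spleens, 367-fold higher (adjusted p = 5.85e-11). Lpl, the lipase of lipoproteins, had 1464, 1291 and 1501 CPM in dendritic cells and 22.0 to 41.3 CPM in spleens, 42.2-fold higher. These 3 genes left no overlap between the groups.

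Among receptors of macrophages, Adgre1, the F4/80 antigen, had 418, 428 and 412 CPM in dendritic cells and 76.1 to 122 CPM in spleens, 4.23-fold higher (adjusted p = 4.04e-10). Csf1r, the receptor for macrophage colony-stimulating factor, had 1095, 900.1 and 1106 CPM in dendritic cells and 287 to 431 CPM in spleens, 2.69-fold higher (adjusted p = 2.10e-08). Fcgr1, the high affinity receptor for immunoglobulin G, was 9.61-fold higher. Mertk, which clears dying cells, had 27.5, 22.7 and 25.2 CPM in dendritic cells, inside the spleen range of 17.8 to 32.9 CPM (log2 -0.05, SE 0.15, adjusted p = 0.786). Apoe, which carries lipids out of macrophages, had 10.5, 9.47 and 9.25 CPM in dendritic cells and 426 to 888 CPM in spleens, 64.2-fold lower (adjusted p = 8.08e-11). Fabp4, a carrier of fatty acids, and Retnla, a secreted product of alternatively activated macrophages, were the other genes of the list that were lower, by 12.0-fold and 6.86-fold, and Retnla overlapped between the groups.

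Genes of monocytes and of myeloid cells in general were also measured. Of 21 genes 15 were higher, 13 at least 4-fold, and 6 lower, with a median log2 fold change of 2.88. Itgam, the CD11b integrin chain, had 3638, 3351 and 3751 CPM in dendritic cells and 85.7 to 160.2 CPM in spleens, 30.2-fold higher (adjusted p = 5.73e-12); it shared 96.0% of its coding windows with another annotated gene. Msr1, a scavenger receptor, was 45.8-fold higher, Tlr2, a sensor of bacterial lipopeptides, 14.2-fold higher, and Cd14, the co-receptor for LPS, 8.88-fold higher. Ccr2, which brings monocytes out of the marrow, had 177, 145 and 115 CPM in dendritic cells and 18.7 to 27.9 CPM in spleens, 6.12-fold higher (adjusted p = 1.21e-10). Ly6c2, a marker of inflammatory monocytes, had 44.1, 35.1 and 50.6 CPM in dendritic cells and 63.4 to 87.4 CPM in spleens (log2 -0.74, SE 0.13, adjusted p = 0.000115), and shared 67.0% of its windows. Plac8, a gene of monocytes and many lymphoid cells, was 47.9-fold lower.

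Lysosomal genes were higher nearly throughout. Of 24 genes for lysosomes and lipid handling 22 were higher, 13 at least 4-fold, with a median log2 fold change of 2.04 and a sum of 23830 to 25790 CPM in dendritic cells and 5400 to 6206 CPM in spleens. Psap, the precursor of the saposins that help break down sphingolipids, had 11790, 10840 and 11630 CPM in dendritic cells and 2112 to 2725 CPM in spleens, 4.79-fold higher (adjusted p = 1.48e-12). Lamp1, a membrane protein of lysosomes, had 584, 599 and 604 CPM in dendritic cells and 124 to 147 CPM in spleens, 4.42-fold higher (adjusted p = 2.47e-13). Cathepsins Ctsd, Ctsz, Ctsl and Ctsb were 5.61-fold, 5.55-fold, 3.80-fold and 1.82-fold higher. Ctsd shared 64.9% of its windows. Atp6v0d2, a subunit of the proton pump, had 91.8, 85.8 and 80.9 CPM in dendritic cells and 0.378 to 1.11 CPM in spleens, 122-fold higher (adjusted p = 3.53e-11). Acp5, the tartrate-resistant phosphatase, was the only gene of the list called lower, with 52.3, 51.2 and 63.0 CPM in dendritic cells and 272 to 334 CPM in spleens.

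**Figure D3:**
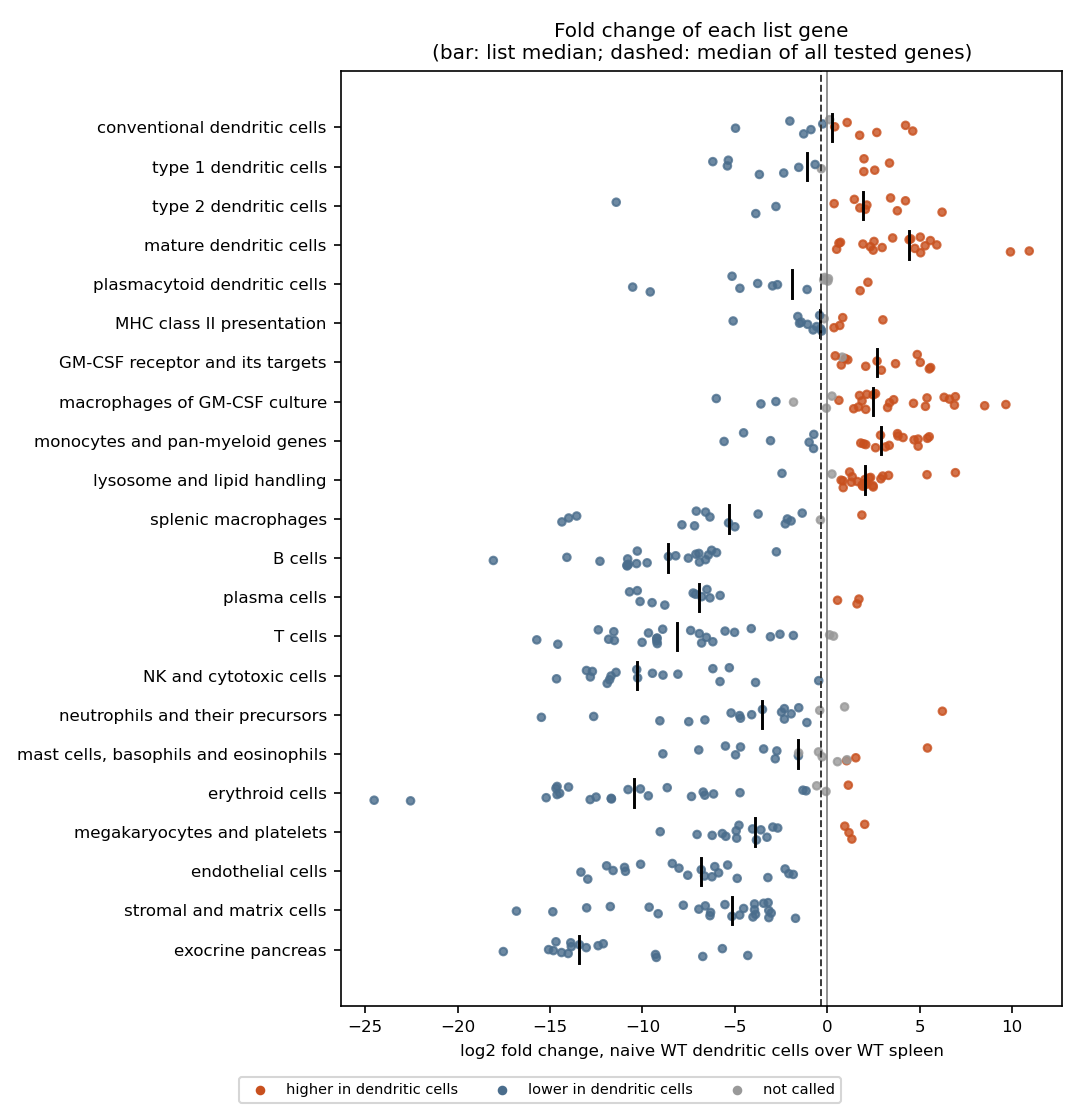
Log2 fold change of each list gene, dendritic cells over spleen, with genes called higher in orange, called lower in blue and not called in grey, a black bar at each list median and a dashed line at the median of all tested genes (-0.33). List medians ran from 4.43 for the mature genes to -13.41 for exocrine pancreas genes; the fitted values of genes with no count in a group depend on the prior count.

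A run of matrix metalloproteinase genes on chromosome 9 was high in the cultures. Metalloproteinases are secreted enzymes that cut collagen, elastin and other matrix proteins, and in the mouse many of their genes lie side by side. The 10 genes of this cluster (GRCm38 annotation, Mmp13 at chr9:7272514-7283331 to Mmp7 at chr9:7692090-7699585) were gathered after the values of several were seen, so they are described only. Of 9 tested genes 7 were called higher and 2, Mmp27 and Mmp7, were not called.

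Mmp12, the macrophage elastase, had 7157, 6252 and 8606 CPM in dendritic cells and 5.66 to 13.4 CPM (median 9.26) in spleens, 812-fold higher (log2 9.67, SE 0.21, adjusted p = 1.29e-13). Mmp1b, a collagenase-like gene of rodents, had 48.5, 51.9 and 78.2 CPM in dendritic cells and no count in any spleen, a difference of at least 17990-fold with the spleens together put at 3 counts. Mmp1a, its paralog, annotated as a polymorphic pseudogene, had 52.9, 56.6 and 75.6 CPM in dendritic cells. It had no count in most spleens and 0.778 CPM in replicate 6. Mmp10, a stromelysin, had 37.5, 40.1 and 53.6 CPM in dendritic cells and 0 to 0.357 CPM in spleens (log2 9.14, SE 0.80, adjusted p = 1.42e-07). Mmp3, the other stromelysin, had 48.5, 51.9 and 73.8 CPM in dendritic cells and 1.23 to 3.40 CPM in spleens, 25.2-fold higher. Mmp13, collagenase 3, was 80.1-fold higher, with 8.68, 9.58 and 14.6 CPM in dendritic cells and 0.0324 to 0.405 CPM in spleens. In each of these 6 genes dendritic cell replicate 4 was the highest library. Mmp8, the neutrophil collagenase, had 254, 217 and 234 CPM in dendritic cells and 1.86 to 6.42 CPM in spleens, 75.1-fold higher (adjusted p = 2.13e-10).

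At the far end of the cluster the groups overlapped. Mmp27 had 0.157, 1.95 and 1.92 CPM in dendritic cells and 0.186 to 2.37 CPM in spleens (adjusted p = 0.436), and Mmp7, matrilysin, had 0, 0.346 and 0.147 CPM in dendritic cells and 0 to 1.09 CPM in spleens (adjusted p = 0.239). Mmp20 was too low to test. The ends of Mmp12 (chr9:7344381-7369499, plus strand) and Mmp1b (chr9:7368239-7388047, minus strand) overlap on opposite strands, and the sources used here do not say whether counting used strand, so reads in the overlap cannot be assigned to either gene. The call for Mmp1a was lost with DESeq2 (adjusted p = 0.0712).

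**Figure D4:**
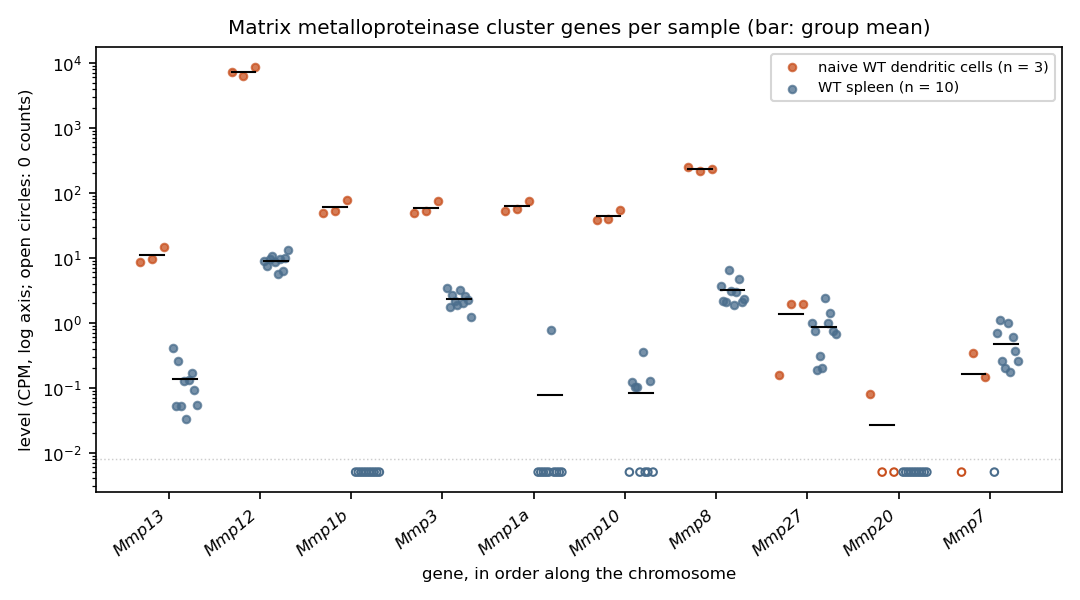
Level of the metalloproteinase cluster genes in every library, in CPM on a log axis, in their order along the chromosome, with dendritic cell cultures (orange, n = 3) left of spleens (blue, n = 10), open circles for libraries with 0 counts and bars at group means. From Mmp13 to Mmp8 the cultures stand above all spleens, and for Mmp27 and Mmp7 the groups overlap.

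The letters TGAGTCA, the AP-1 element, stood in the 250 bases before a listed start of 7 of the 10 cluster genes on either strand (70.0%), against 5.16% of 27025 genes with a listed promoter, 4.38% of 12962 such genes among those tested and 6.37% of 895 called and at least 4-fold higher. The cluster genes are related to each other, so their share is not a test against unrelated genes. The 7 windows are shown, 5′ to 3′ on the strand of each gene, because neighbouring genes, all but Mmp7 called higher, share the letters. Capitals mark the element, which in Mmp13 reads as its reverse complement. They lie at chr9:7272459-7272505 for Mmp13, chr9:7347310-7347356 for Mmp12, chr9:7388093-7388139 for Mmp1b on the minus strand, chr9:7445756-7445802 for Mmp3, chr9:7464048-7464094 for Mmp1a, chr9:7502259-7502305 for Mmp10 and chr9:7692007-7692053 for Mmp7.
Mmp13: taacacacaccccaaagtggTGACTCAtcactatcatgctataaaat
Mmp12: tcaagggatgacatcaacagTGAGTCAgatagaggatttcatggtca
Mmp1b: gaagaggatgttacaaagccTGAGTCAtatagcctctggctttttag
Mmp3: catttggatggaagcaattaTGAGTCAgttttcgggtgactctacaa
Mmp1a: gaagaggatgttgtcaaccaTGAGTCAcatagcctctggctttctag
Mmp10: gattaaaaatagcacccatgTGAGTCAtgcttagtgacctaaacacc
Mmp7: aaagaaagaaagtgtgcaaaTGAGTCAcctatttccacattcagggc
The letters did not separate the genes by their levels, since Mmp7 held them and was not called, while Mmp8 was 75.1-fold higher without them in this window. The window of Mmp12 stands before its second listed start.

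Genes of AP-1 subunits and related early genes were themselves mixed. Of 18 immediate early genes 9 were higher, 6 lower and 3 not called, with a median log2 fold change of 0.76. Their sum was 285.3 to 418 CPM in spleen replicates 1 to 5 and 473.6 to 602.2 CPM in replicates 6 to 10. Atf3, which can pair with Jun proteins, had 33.4, 36.7 and 36.3 CPM in dendritic cells and 0.657 to 1.46 CPM in spleens, 36.0-fold higher (adjusted p = 1.00e-11). Jun had 33.1, 35.9 and 31.9 CPM in dendritic cells and 3.10 to 10.5 CPM in spleens, 4.83-fold higher, and Junb had 69.8, 69.3 and 70.6 CPM in dendritic cells and 2.27 to 30.2 CPM in spleens, 4.92-fold higher. Fos had 28.8 CPM in dendritic cell replicate 1 but 7.13 and 6.73 CPM in the other cultures, against 1.36 to 3.45 CPM in spleens (log2 2.62, SE 0.35, adjusted p = 1.16e-05). Nr4a1, an early gene that antigen receptors induce in lymphocytes, was 23.1-fold lower, with 0.442 to 1.18 CPM in dendritic cells and 14.1 to 21.5 CPM in spleens.

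Among the 15 genes with the highest fold changes, those not yet described were Cxcl3, Dcstamp, Tnip3, Pou4f1 and Y-linked genes. Cxcl3, a chemokine for neutrophils, had 41.2, 46.0 and 78.1 CPM in dendritic cells, while 9 of 10 spleens had no count and replicate 6 had 0.0324 CPM. With so few spleen counts the ratio was 25000, with a 95% counting interval of 6910 to 206000 that takes counts as independent. Dcstamp, a receptor needed for cell fusion of osteoclasts and macrophages, had 96.0, 76.1 and 113 CPM in dendritic cells and 0 to 0.125 CPM in spleens. Tnip3, an inhibitor of NF-kB signalling, had 214, 228 and 212 CPM in dendritic cells and 0.165 to 0.928 CPM in spleens, 376-fold higher. Pou4f1, a transcription factor best known from sensory neurons, had 18.2, 23.2 and 23.0 CPM in dendritic cells and 0 to 0.259 CPM in spleens, 368-fold higher (adjusted p = 9.74e-08).

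On the side of the spleen, B cell genes were nearly absent from the cultures. All 21 tested genes of the list were called lower, each at least 4-fold, with a median log2 fold change of -8.60 and a sum of 62.6 to 78.0 CPM in dendritic cells, against 8359 to 13320 CPM in spleens. Ms4a1, which encodes CD20, had 0, 0.476 and 0.0553 CPM in dendritic cells and 225 to 376 CPM (median 314) in spleens, 1830-fold lower (log2 -10.84, SE 0.60, adjusted p = 1.16e-09). Every culture was far below every spleen. Fcer2a, the low affinity receptor for immunoglobulin E on follicular B cells, had no count in any culture and 307 to 512 CPM in spleens, at least 21290-fold lower. Blnk, an adaptor of B cell receptor signalling that myeloid cells use as well, kept 27.5, 33.4 and 30.7 CPM in dendritic cells, against 185 to 220 CPM in spleens, 6.74-fold lower.

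Genes of plasma cells fell into secretory and general ones. Of 14 genes 11 were lower, each at least 4-fold, and 3 were higher. Jchain, which joins units of IgM and IgA, had 1.44, 2.16 and 2.08 CPM in dendritic cells and 569 to 1098 CPM in spleens, 443-fold lower (adjusted p = 7.39e-12). Mzb1, a chaperone of antibody secretion, was 714-fold lower, and shared 67.7% of its windows, and Tnfrsf17, the survival receptor BCMA, had no count in any culture. The 3 higher genes are known from other cells too. Xbp1, the factor of the unfolded protein response, on which dendritic cells also depend, had 732, 849 and 779 CPM in dendritic cells and 189 to 333 CPM in spleens, 3.28-fold higher (adjusted p = 3.00e-08). Sdc1, the proteoglycan CD138, was 3.05-fold higher, and Prdm1, the factor Blimp-1, 1.47-fold higher with overlapping groups. The call for Prdm1 was lost without dendritic cell replicate 4 (adjusted p = 0.0915).

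T cell and natural killer (NK) cell genes showed the same direction. Of 26 T cell genes 24 were lower, 23 at least 4-fold, and none was higher; 3 of them, Cd3e, Trbc1 and Ctla4, had no count in the cultures. Cd3e, a chain of the T cell receptor complex, had 26.4 to 48.7 CPM in spleens and was at least 1898-fold lower in dendritic cells. Cd3g, another chain, had 1.4, 1.02 and 2.38 CPM in dendritic cells and 132 to 249 CPM in spleens, 111-fold lower. Lck, the kinase of the receptor, had 0.827, 0.886 and 0.553 CPM in dendritic cells and 340 to 567 CPM in spleens, 600-fold lower (adjusted p = 1.20e-12). All 18 NK genes were lower, 17 at least 4-fold, and 11 of them had no count in the cultures. The median log2 fold change of the NK list was -10.29, or -7.88 with genes without a count set at their bound. Klrd1, the CD94 chain, had 0.512, 0.346 and 2.36 CPM in dendritic cells and 47.9 to 71.1 CPM in spleens, 55.8-fold lower. Klrk1, the NKG2D receptor, was the exception in size: it had 22.8, 19.4 and 27.5 CPM in dendritic cells and 24.0 to 40.4 CPM in spleens (log2 -0.46, SE 0.16, adjusted p = 0.0194), with overlap and a call lost without dendritic cell replicate 1 (adjusted p = 0.0613) or 2 (adjusted p = 0.112).

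Plasmacytoid dendritic cells, the interferon producers of the spleen, were measured by 14 genes. Of these 8 were lower, 7 at least 4-fold, 2 were higher and 4 were not called. Klk1, among the 7, had 11.9 to 28.6 CPM in spleen replicates 4, 5, 8 and 9, which were the highest in pancreas genes. It had 2.51 to 3.96 CPM in the other spleens and 0.571 to 2.27 CPM in dendritic cells. Siglech, their surface lectin, had 0.177, 0 and 0 CPM in dendritic cells and 33.8 to 60.7 CPM (median 46.1) in spleens, 765-fold lower (adjusted p = 3.19e-09). Ly6d, which B cells share with them, was 1470-fold lower. Tcf4, the factor that sets their fate, had 62.9, 81.0 and 72.1 CPM in dendritic cells and 113 to 209.8 CPM in spleens, 2.13-fold lower. Bst2, tetherin, which interferon induces in many cells, was 3.43-fold higher, and Runx2 4.60-fold higher.

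The macrophages that live in the spleen have their own genes, and these were low in the cultures although general macrophage genes were high. Of 17 such genes 15 were lower, 13 at least 4-fold, with a median log2 fold change of -5.34 (-5.0 with bounds), and C6, Cd209b, Timd4 and Cd209e had no count in any culture. Spic, the factor that makes red pulp macrophages, had 2.77, 2.94 and 1.18 CPM in dendritic cells and 45.8 to 100.2 CPM (median 71.4) in spleens, 32.0-fold lower (adjusted p = 4.62e-09). Vcam1, an adhesion molecule they share with stroma, had 1.38, 1.43 and 1.62 CPM in dendritic cells and 170.3 to 246 CPM in spleens, 145-fold lower. Slc40a1, the iron exporter ferroportin, was 40.6-fold lower, with 1.88 to 2.74 CPM in dendritic cells and 64.7 to 119.7 CPM in spleens. Hmox1, which breaks down haem, had 53.6, 49.6 and 55.5 CPM in dendritic cells and 192 to 314 CPM in spleens, 4.83-fold lower. Nr1h3, the liver X receptor alpha, was 13.4-fold lower. The list includes Cd22, which is mainly a B cell gene. Axl, a receptor that clears dying cells and is also known from dendritic cells, was the only member called higher, with 1003, 866 and 943 CPM in dendritic cells and 211 to 285 CPM in spleens, 3.66-fold higher (adjusted p = 1.08e-10). Siglec1, the sialoadhesin of metallophilic macrophages, had 36.0, 35.5 and 34.5 CPM in dendritic cells, inside the spleen range of 19.0 to 66.8 CPM (adjusted p = 0.274).

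Red cell genes were far lower in the cultures. Of 26 erythroid genes 23 were lower, 21 at least 4-fold, 1 was higher and 2 were not called, and the sum was 367 to 396 CPM in dendritic cells, against 29670 to 118500 CPM in spleens. Haemoglobin genes took 0.000393 to 0.000696% of counts in dendritic cells and 3.31 to 12.0% in spleens. Hbb-bs, an adult beta chain, had 2.28, 3.85 and 2.58 CPM in dendritic cells and 7143 to 41490 CPM (median 20170) in spleens, 7300-fold lower (log2 -12.83, SE 0.77, adjusted p = 2.45e-09). Both alpha chain genes, Hba-a1 and Hba-a2, had no count in any culture, and they are taken up with the near copies below. Alas2, the red cell enzyme that starts haem synthesis, had 0.394, 0 and 0.0737 CPM in dendritic cells and 208 to 1206 CPM in spleens. Gata1, the factor of the lineage, had 0.118, 0 and 0.258 CPM in dendritic cells and 9.39 to 45.6 CPM in spleens, 163-fold lower (adjusted p = 6.78e-07). Epor, the erythropoietin receptor, was 98.7-fold lower, and Rhd, the Rh antigen, 1760-fold lower. Tal1, a factor that mast cells and megakaryocytes share, was the gene called higher, with 57.9, 55.4 and 48.6 CPM in dendritic cells and 9.13 to 42.7 CPM in spleens (adjusted p = 0.00773). The call for Tal1 was lost over all 31 libraries (adjusted p = 0.0723).

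The spread among spleens was wide for these genes, with replicate 4 the highest library for Alas2, Gata1 and Rhd. The GATA letters AGATAAG stood in the 250 bases before a start of 5 of the 18 erythroid genes with a listed promoter (27.8%), against 3.17% of all 27025 genes with a listed promoter and 3.70% of 2727 genes called and at least 4-fold lower. The 5 are shown as above, with the letters or their reverse complement in capitals, since each of the genes was called lower. They lie at chr7:103828112-103828158 for Hbb-bs on the minus strand, chr9:21963605-21963651 for Epor on the minus strand, chr2:121037078-121037124 for Epb42 on the minus strand, chr4:134864473-134864519 for Rhd and chr17:36869390-36869436 for Trim10.
Hbb-bs: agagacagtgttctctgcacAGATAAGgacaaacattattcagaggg
Epor: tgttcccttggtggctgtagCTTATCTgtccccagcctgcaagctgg
Epb42: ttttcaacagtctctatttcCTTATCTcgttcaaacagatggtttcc
Rhd: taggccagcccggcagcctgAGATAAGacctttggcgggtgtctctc
Trim10: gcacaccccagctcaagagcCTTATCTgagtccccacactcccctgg
Epb42, a protein of the red cell membrane skeleton, had 9.33 to 91.9 CPM in spleens, and Trim10, a ubiquitin ligase of red cell development, 8.51 to 68.7 CPM. Neither had a count in dendritic cells, so they were at least 1771-fold and 1267-fold lower.

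Platelet genes were split. Of 18 genes 14 were lower, each at least 4-fold, and 4 were higher, and the sums overlapped, with 693 to 713 CPM in dendritic cells and 468 to 720 CPM in spleens. Ppbp, a platelet chemokine, had 0.728, 1.92 and 1.82 CPM in dendritic cells and 34.5 to 64.9 CPM in spleens, 29.9-fold lower. Itga2b, the platelet integrin chain, was 14.2-fold lower, and Gp1ba, part of the receptor for von Willebrand factor, 9.60-fold lower. The 4 higher genes were Pf4, Vwf, Nbeal2 and F2rl2. Pf4, a chemokine of platelets and some macrophages, had 60.2, 64.0 and 70.6 CPM in dendritic cells and 17.5 to 37.4 CPM in spleens, 2.52-fold higher (adjusted p = 1.37e-05). Vwf, the von Willebrand factor gene, had 149, 145 and 119 CPM in dendritic cells and 42.7 to 83.5 CPM in spleens, 2.26-fold higher. Nbeal2, needed for platelet granules, was 1.93-fold higher, and F2rl2, a thrombin receptor, 4.07-fold higher.

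Genes of vessels and stroma were low in the cultures. All 21 endothelial genes were lower, 20 at least 4-fold, and 8 had no count in the cultures. Cdh5, the cadherin of vessel walls, had no count in any culture and 9.55 to 13.9 CPM in spleens, at least 615.4-fold lower. Pecam1, which leukocytes carry too, had 21.2, 12.0 and 15.5 CPM in dendritic cells and 393 to 584 CPM in spleens, 29.3-fold lower (adjusted p = 6.48e-11). All 25 stromal genes were lower, 24 at least 4-fold. Cxcl13 and Ccl19, the chemokines by which stroma places B cells and T cells, had no count in any culture, with 32.8 to 57.7 CPM and 132 to 305 CPM in spleens. Ccl19 shared 80.6% of its coding windows with another gene. Collagen genes differed between the cultures. Col1a1 had 34.5, 20.1 and 9.69 CPM in dendritic cells and 39.8 to 98.8 CPM in spleens, 3.29-fold lower, and Col1a2 had 35.0, 23.1 and 11.2 CPM in dendritic cells and 157 to 284 CPM in spleens, 8.95-fold lower. In both, as in Col3a1 (29.4, 17.5 and 9.42 CPM in dendritic cells), replicate 1 was the highest culture and replicate 4 the lowest.

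Granulocyte genes were mostly lower. Of 19 neutrophil genes 16 were lower, 13 at least 4-fold, 2 were not called, and the one higher was Mmp8 of the metalloproteinase cluster; without spleen replicate 8, 2 were higher. Mpo and Elane, the granule enzymes of early precursors, had no count in any culture, with 38.0 to 144 CPM and 6.15 to 19.3 CPM in spleens. S100a9, a calcium-binding protein of neutrophils and monocytes, had 15.3, 16.8 and 6.75 CPM in dendritic cells and 175 to 746 CPM in spleens, 25.9-fold lower. Ngp, Camp and Ltf, contents of secondary granules, were 180-fold, 533-fold and 98.4-fold lower. Ly6g, the surface marker, had 3.42, 5.47 and 8.02 CPM in dendritic cells and 8.69 to 16.2 CPM in spleens, 2.15-fold lower (adjusted p = 0.00149).

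Among 17 genes of mast cells, basophils and eosinophils 9 were lower, 5 were not called and 3 were higher. Siglecf, a lectin of eosinophils and of macrophages exposed to GM-CSF, had 67.5, 71.3 and 61.8 CPM in dendritic cells and 0.761 to 2.51 CPM in spleens, 42.9-fold higher (adjusted p = 5.65e-10). Kit, the stem cell factor receptor, had 63.9, 64.2 and 71.1 CPM in dendritic cells and 17.4 to 29.9 CPM in spleens, 2.92-fold higher. Cpa3, a protease of mast cells and basophils, was 2.07-fold higher, with 2.52 to 3.78 CPM in dendritic cells and 0.989 to 2.35 CPM in spleens. The basophil protease Mcpt8 had 1.47 to 1.63 CPM in dendritic cells, inside the spleen range of 0.567 to 1.75 CPM (adjusted p = 0.18).

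Some spleens held genes of the pancreas, which lies beside the spleen. The 17 exocrine genes summed to 2.13, 2.68 and 3.76 CPM in dendritic cells and ran between 16.2 and 3023 CPM (median 154) in spleens. All 17 were called lower, 12 of them had no count in the cultures, and 9 overlapped between the groups. That count depended on the fit and on single cultures: limma voom called 1 of the 17 lower, and 5, 6 and 6 were called lower without dendritic cell replicate 1, 2 and 4. With limma voom the calls were lost for Prss2 (adjusted p = 0.326), Cela2a (0.339), Amy1 (0.501), Cela3b (0.52) and Alb (0.546). Prss2, a trypsinogen, had 0.177, 0 and 0 CPM in dendritic cells and 0.836 to 163 CPM in spleens (log2 -9.25, SE 2.83, adjusted p = 0.00982). Amy1, an amylase, had no count in the cultures and 2.51 to 2488 CPM in spleens, and Alb, serum albumin, had no count in the cultures and 0.110 to 1091 CPM in spleens, the highest in replicate 10. The calls for Alb and for Cela3b were lost when any one of the 3 cultures was left out, with adjusted p of 0.0780 to 0.0847. That for Cela2a (adjusted p = 0.0494) was lost without any one culture and without spleen replicate 1, 4, 5, 8 or 9, with adjusted p of 0.0536 to 0.133.

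Lineage transcription factors divided evenly in number. Of 42 factors 19 were higher and 19 lower, 10 at least 4-fold higher and 16 at least 4-fold lower, with a median log2 fold change of -0.30. Spi1, which encodes PU.1, the factor of myeloid cells and B cells, had 284, 269 and 256 CPM in dendritic cells and 45.5 to 67.2 CPM in spleens, 4.57-fold higher (adjusted p = 5.26e-11). Id2, needed for conventional dendritic cells, had 205, 242 and 216 CPM in dendritic cells and 25.3 to 34.4 CPM in spleens, 7.53-fold higher. Nfil3, which acts in type 1 cells and NK cells, was 28.1-fold higher, with 53.4 to 61.3 CPM in dendritic cells and 1.33 to 3.06 CPM in spleens. Cebpb, a factor of emergency myelopoiesis, had 38.6, 26.4 and 38.5 CPM in dendritic cells and 0.636 to 7.25 CPM in spleens, 10.2-fold higher (adjusted p = 0.000345). Ikzf3, Aiolos, of lymphocytes, had 0.216 to 0.479 CPM in dendritic cells and 39.9 to 79.9 CPM in spleens, 190-fold lower. Spib, of B cells and plasmacytoid cells, was 13.6-fold lower. Eomes and Tbx21, the T-box factors of NK and T cells, had no count in any culture and were at least 561.7-fold and 258.5-fold lower.

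Gpr34, the receptor the series is about, which responds to lysophosphatidylserine, did not differ by the test. It had 6.38, 4.30 and 4.17 CPM in dendritic cells and 4.10 to 9.04 CPM (median 5.57) in spleens, and the groups overlapped (log2 -0.27, SE 0.23, adjusted p = 0.307). Gpr82, an orphan receptor that lies beside it on the X chromosome, had 1.85, 1.08 and 0.848 CPM in dendritic cells and 0.0616 to 0.507 CPM in spleens, 4.47-fold higher (adjusted p = 0.00112). Gpr174, another lysophosphatidylserine receptor, had no count in any culture and 36.1 to 65.0 CPM in spleens, at least 2580-fold lower. P2ry10, a further one, had 62.5, 69.97 and 73.0 CPM in dendritic cells and 47.6 to 74.8 CPM in spleens, with overlap (adjusted p = 0.35). Pla1a, the phospholipase that makes the ligand, had 13.9, 17.9 and 16.8 CPM in dendritic cells and 0.389 to 1.0 CPM in spleens, 23.0-fold higher (adjusted p = 1.67e-10). Of the related nucleotide receptors, P2ry14, for UDP-glucose, was 9.98-fold higher, P2ry13, for ADP, 1.70-fold higher, and P2ry12, for ADP, 1.70-fold lower with overlapping groups. The call for P2ry12 was lost without dendritic cell replicate 4 (adjusted p = 0.0584).

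Genes of cell division were mostly not called. Of 24 genes 7 were lower, 2 higher and 15 not called, none was 4-fold in either direction, and the median log2 fold change was -0.28, close to that of all tested genes. Without spleen replicate 10 the count of lower genes was 12, and without dendritic cell replicate 1 or 2 that of higher genes was 1. The counts also depended on the normalization: without composition factors 14 were lower and 0 higher. Mki67, which marks cycling cells, had 42.8, 34.1 and 32.5 CPM in dendritic cells and 72.2 to 254 CPM in spleens, 3.67-fold lower (adjusted p = 0.000184). Top2a, a topoisomerase of dividing cells, had 159.5, 133 and 128 CPM in dendritic cells and 109.7 to 278 CPM in spleens, with overlap (adjusted p = 0.154). Without composition factors Top2a was called lower (adjusted p = 0.0188). Pcna, the replication clamp, was 1.72-fold lower, with 49.0 to 57.3 CPM in dendritic cells and 78.1 to 110.4 CPM in spleens. It shared 75.9% of its coding windows with another gene. Spleen replicate 4, the highest in red cell genes, was also highest in Mki67.

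Among the 15 genes with the lowest fold changes were runs of neighbours. The alpha globin cluster on chromosome 11 gave 5 of them, Hba-a1 and Hba-a2 together with Hba-x, the embryonic zeta chain, and Hbq1b and Hbq1a, theta chains. None of the 5 had a count in any culture, and Hbq1b had 435 to 2088 CPM, Hba-x 36.6 to 172 CPM and Hbq1a 0.489 to 487 CPM in spleens. Hbq1b and Hbq1a shared 64.5% and 63.1% of their windows, and the call for Hbq1a was lost with limma voom (adjusted p = 0.488). C4b, Tnxb and Cyp21a1 form another run. They lie beside each other in the class III region of the MHC, from Tnxb (chr17:34670535-34719815, plus strand) over C4b (chr17:34728380-34743882, minus strand) to Cyp21a1 (chr17:34801348-34804561, minus strand). C4b, complement component 4, had no count in any culture and 255 to 512 CPM in spleens, at least 19550-fold lower. Tnxb, a tenascin of connective tissue, and Cyp21a1, the 21-hydroxylase of steroid synthesis, also had no count in any culture, at least 6353-fold and 5604-fold lower. C4b and Cyp21a1 shared 50.0% and 51.9% of their coding windows with another gene, Tnxb 11.2%. Gimap3, a GTPase of lymphocytes, and Gdpd2, a phosphodiesterase, had no count in any culture either, against 80.7 to 115 CPM and 51.7 to 128 CPM in spleens.

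Sex-linked genes separated the groups completely. Eif2s3y, Ddx3y and Kdm5d, genes of the Y chromosome, had 59.3 to 59.9, 19.98 to 23.1 and 12.0 to 17.4 CPM in dendritic cells and no count in any of the 10 spleens. Uty, a further gene of the Y chromosome, was called higher without overlap but was not free of counts in spleens. The call for Uty was lost with DESeq2 (adjusted p = 0.0797). Xist, the RNA of the inactive X, had 1.4, 0.195 and 0.553 CPM in dendritic cells and 139 to 245 CPM in spleens, 256-fold lower (adjusted p = 2.33e-09). Every culture carried the Y-linked RNAs, and every spleen lacked those of Eif2s3y, Ddx3y and Kdm5d. With Xist high, this is the pattern known from female tissue, though the labels give no sex for the spleens. The cultures came from male mice, so sex and source changed together over the whole comparison. A difference of sex and a difference of source cannot be told apart here for any gene.

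Genes with near-identical copies were examined apart. How reads that fit several places were counted is not given in the sources used here, and only the dendritic cell count files are named for the intersect step of bedtools. For each gene the share of 30-base windows of its longest coding sequence that recur in a transcript of another gene was taken as a measure (GRCm38, GENCODE M21). Among coding genes with at least 10 CPM in spleen, 5071 with no shared window had a median log2 fold change of 0.10, and 11.5% were at least 4-fold lower. The 354 genes with over 90% of windows shared had a median of -1.16, and 34.7% were at least 4-fold lower. In these 2 classes 1.20% and 5.93% of genes had no count in any culture. These genes were chosen by their spleen level alone. Over all tested genes with a value, the medians were -0.19 for 10401 with no shared window and -1.20 for 1190 with over 90%. There 23% and 35% were at least 4-fold lower, and 9.41% and 11.7% had no count in any culture. Both shares differed less between the classes than under the spleen filter. Ordinary differences between cells and the counting of shared reads cannot be told apart for genes of the last class.

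**Figure D5:**
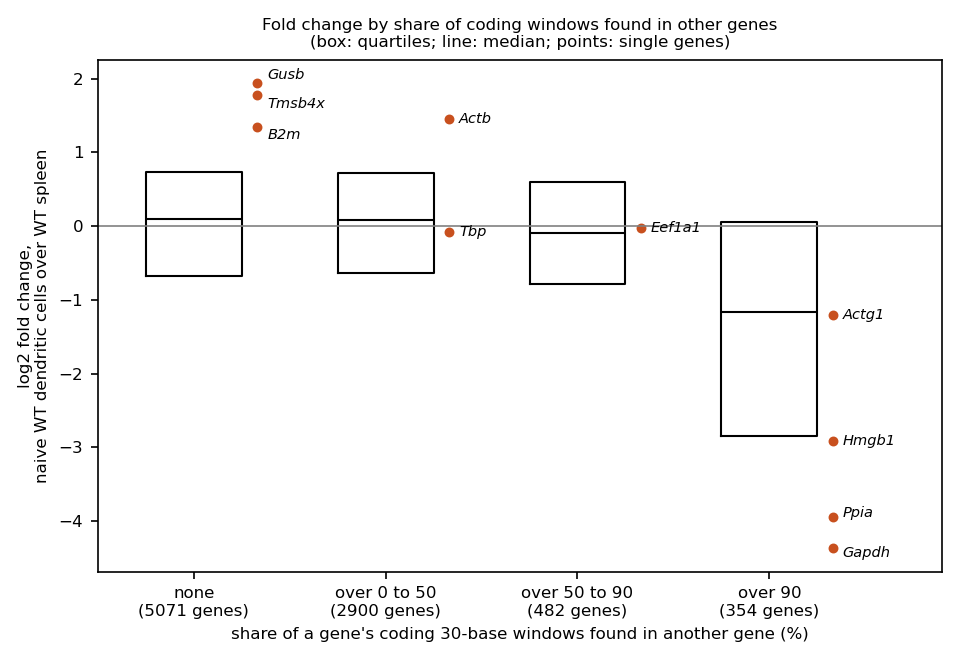
Log2 fold change, dendritic cells over spleen, of coding genes with at least 10 CPM in spleen, by the share of their coding windows that recur in another gene; boxes give quartiles and medians of each class and points give single genes. The median falls to -1.16 in the class with over 90% shared, where Gapdh, Ppia, Hmgb1 and Actg1 lie.

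Gapdh, the glycolytic enzyme often used for scaling, shared 94.3% of its windows, and 340 other genes held at least 1 of them. It had 5.35, 2.98 and 5.16 CPM in dendritic cells and 80.3 to 119 CPM in spleens, 20.7-fold lower (adjusted p = 2.76e-10). Ppia, cyclophilin A, with every window shared, had 29.8, 26.7 and 28.4 CPM in dendritic cells and 305 to 666 CPM in spleens, 15.5-fold lower. Hmgb1, a chromatin protein, shared 98.5% and was 7.56-fold lower. Actg1, gamma actin, also with every window shared, was 2.30-fold lower, at 532, 586 and 559 CPM in dendritic cells and 1072 to 1502 CPM in spleens. Actb, beta actin, with 45.9% shared, went the other way, at 12250, 13670 and 13360 CPM in dendritic cells and 4325 to 5894 CPM in spleens, 2.74-fold higher. Eef1a1, a translation factor with 88.5% shared, overlapped between the groups (log2 -0.02, adjusted p = 0.805).

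Over the whole list of 32 genes known for pseudogene copies, 12 were higher and 16 lower, with a median log2 fold change of -0.23, and 20 shared over 50% of their windows. Over 26 genes listed as having few near copies, 17 were higher and 4 lower, with a median of 0.40. Of these 26, 7 also shared over 50% of their windows, so the 2 lists are not cleanly apart. Tbp, the TATA-binding protein, with 1.09% shared, had 77.0, 88.2 and 83.4 CPM in dendritic cells and 76.9 to 97.5 CPM in spleens (log2 -0.08, SE 0.09, adjusted p = 0.430). Gusb, a lysosomal enzyme, and B2m, the light chain of MHC class I, shared none and were 3.84-fold and 2.55-fold higher.

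The closeness of the copies is shown by stretches of coding sequence in which the only difference between gene and copy is in capitals. Hba-a1 (chr11:32283511-32284465, plus strand) and Hba-a2 (chr11:32296489-32297298, plus strand) differ at 1 of 426 coding positions, and coding positions 337 to 396 of each are given. Hmgb1 (chr5:149046702-149184489, minus strand) and the processed pseudogene Gm15387 (chr15:74093686-74094333, minus strand) differ at 1 of 645 positions, and positions 1 to 60 are given.
Hba-a1: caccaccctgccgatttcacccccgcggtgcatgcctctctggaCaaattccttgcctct
Hba-a2: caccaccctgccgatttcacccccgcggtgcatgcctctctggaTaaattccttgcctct
Hmgb1: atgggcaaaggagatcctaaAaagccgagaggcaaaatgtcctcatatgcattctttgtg
Gm15387: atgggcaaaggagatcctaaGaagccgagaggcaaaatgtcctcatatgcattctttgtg
Hba-a1 had 4000 to 14130 CPM in spleens and Hba-a2 16970 to 55510 CPM, with no count for either in the cultures, whereas Hbb-bs and Hbb-bt, which share 93.9% of their windows, each had counts in every culture. A value for one alpha chain gene is therefore uncertain, as is the split between the beta chain genes.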

How the data were processed

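RNA-seq of total RNA was compared between 3 naive WT dendritic cell cultures and 10 WT spleens. The authors deposited whole-number read counts per Ensembl gene for each library. A gene not listed for a library was set to 0. A gene without reads and a gene left out of the counting therefore cannot be told apart, also where a bound is given. TopHat 1.3.3, Bowtie 0.0.9v, SAMtools, bedtools and DESeq, and the build mm9, are named in the submitters' processing notes, which give no roles; the names of the dendritic cell count files mention the intersect step of bedtools. Whether counting used strand, and how it treated reads with several places, is not given in the sources used here. Of 29120 IDs 26090 had a name. Coordinates and sequences are GRCm38, matched by ID or symbol and not converted.

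Counts were tested with edgeR 4.0.16 in R 4.3.3 (TMM, filterByExpr, robust quasi-likelihood test, Benjamini-Hochberg adjustment at 0.05), with 11 residual degrees of freedom and a biological coefficient of variation of 0.419. CPM values use TMM-scaled library sizes; the normalization factors of dendritic cell libraries lay at 0.863 to 0.876, those of spleen libraries at 0.962 to 1.09. Bounds for genes without a count use a floor of 3 counts over the group (0.0198 CPM for dendritic cells, 0.00331 CPM for spleens). Bounds and intervals cover counting error only and take counts as independent. Among low counts, 57.8 to 58.2% in dendritic cell libraries and 59.2 to 61.1% in spleen libraries were even. Counts may therefore not be independent, and bounds and intervals may be too tight. The cause of the even counts was not tested. The script was tested on simulated data. Alternatives included DESeq2 1.42.0 and limma 3.58.1 (voom).

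The samples, the 29 gene lists (524 genes with an ID, all tested) and the named genes were chosen with earlier results of these data known. Named were, as far as space allowed, the first 4 genes of each list, up to 6 further called members with the smallest p, and the 15 genes with the highest and the 15 with the lowest fold change among those called, not overlapping and with a mean of at least 10 CPM in one group. Members that complete a count of 5 or fewer, genes whose promoters are shown, and the metalloproteinase cluster were named after their values were seen. Same-numbered libraries of the groups did not deviate together. No library was left out.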

Additional observations from a re-analysis of the deposited data

Results flagged for a closer look

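Within the 10 spleens, 23 of 225 named genes had 1 library farther from the rest than Dixon's 95% critical value allows; chance alone flags about 1 in 20 groups. Dixon's test was not run on the 3 dendritic cell cultures.

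Spleen replicate 4 was the highest library for Alas2 (1206 CPM, the next 625 CPM), Gata1 (45.6 CPM), Rhd (156 CPM), Epb42 (91.9 CPM), Trim10 (68.7 CPM), Gp1ba (10.6 CPM), Mki67 (254 CPM) and Ccnb2 (37.4 CPM), and the lowest for Cd80 (5.93 CPM). Its summed levels of erythroid genes (118500 CPM) and cell division genes (2176 CPM) were also the highest among spleens.

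Spleen replicate 1 was the highest for Ly75 (50.4 CPM), Csf2rb2 (31.2 CPM), Xbp1 (333 CPM) and Pou4f1 (0.259 CPM), and the lowest for Klrb1c (4.05 CPM, the next 15.1 CPM). Spleen replicate 6 was the highest for Tbx21 (8.38 CPM), Mmp1a (0.778 CPM, the others 0), Mmp10 (0.357 CPM) and Cxcl3 (0.0324 CPM, the others 0). Cd3d was highest in replicate 8 (106 CPM), Kdr lowest in replicate 7 (25.8 CPM), Dcstamp highest in replicate 5 (0.125 CPM), Hbq1a highest in replicate 7 (487 CPM, the next 242 CPM) and Alb highest in replicate 10 (1091 CPM, the next 240.2 CPM).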

How the results depend on the processing

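Across 24 alternatives, 198 of 225 named genes kept their direction and their side of the threshold, and 27 did not in at least 1. The settings restricted to genes without a shared coding window and to spleens with under 50 CPM of pancreas genes were chosen after seeing the data. Keeping only genes counted in both groups gave 2561 genes at least 4-fold lower and 3848 at least 4-fold changed. Testing only the 10401 genes with no shared window, fewer by construction, gave 7390 called genes, 2925 higher and 4465 lower, with 3231 at least 4-fold changed, 721 higher and 2510 lower. The remaining counts over all genes stayed within 1.5 times, and of 58 list counts 29 moved further in at least 1 setting.

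Without composition factors the median log2 fold change of all tested genes was -0.59, against -0.33, and P2ry10 (-0.14) and Hprt (-0.12) turned; Hprt also turned among genes with no shared window (-0.00079). Cela2a turned without the spleens holding pancreas RNA (0.29). With 1 library left out, Eef1a1 ranged from -0.087 to 0.0087 and turned without dendritic cell replicate 1 (0.0073) or 4, Ccnb2 ranged from -0.20 to 0.046 and turned without spleen replicate 4, and Mertk turned without dendritic cell replicate 2 (0.018). None of these genes but Cela2a was called. The cause of these changes was not tested.

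Deviations from the group mean, taken over genes, correlated between -0.010 and 0.001 for same-numbered libraries. All pairs of a culture and a spleen lay between -0.04 and 0.052. With 2 such different sources of RNA, these values cannot tell whether a shared number stands for a shared mouse or batch. With the replicate block 5075 genes were higher and 7200 lower, and Mcpt8 (-0.0063) and Tbp (0.029), neither called, turned. The block also ended the calls for Cd74 (adjusted p = 0.0944), Klrk1 (0.168), Tal1 (0.0612), Prdm1 (0.283), P2ry12 (0.0607), Cpa3 (0.054) and Cela2a (0.064).

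Leaving out 1 library at a time gave 5695 to 6217 genes higher, 8434 to 9476 lower, 1358 to 1455 at least 4-fold higher and 5177 to 5532 at least 4-fold lower. The calls for Cd74, Klrk1, Prdm1, P2ry12 and several pancreas genes were lost in some of these.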
